A study of Mus musculus with 10 samples.

Results

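The genes described here make cholesterol and fatty acids, or regulate, feed or extend those pathways. They were chosen as a list of 29 symbols, of which 28 lie in the upper lines of a table of 20494 lines, where gene symbols stand beside their own values. Dhcr7, the 1 listed gene on a lower line, was left out, and all 28 others reached at least 1 TPM (a transcript level per length, scaled to the library) in 2 or more of the 10 libraries. The study, on genome stability, sequenced RNA from mouse embryonic stem cells of strain C57BL6X129S6F1, a cell line kept in 5 culture conditions with 2 libraries each. LCDM was N2B27 medium with 3 µM Chir99021, which blocks the kinase GSK3, and 2 µM each of the compounds abbreviated Dim and Mih. A2iL was N2B27 with the same Chir99021 dose and 1.5 µM CGP77675, a Src inhibitor. The media of 2iL-F and 2iL were identical, N2B27 with 3 µM Chir99021 and 1 µM PD0325901, a MEK inhibitor, and differed by label in that 2iL-F had no feeder cells. SL was KO-DMEM with 15% FBS and no inhibitor. Every condition contained 1000 IU of mouse LIF, and every condition other than 2iL-F was labelled as grown on feeders.

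Cholesterol is built from acetyl-CoA through mevalonate, squalene and lanosterol, and fatty acids from acetyl-CoA and malonyl-CoA with NADPH as reductant. The transcription factors SREBP, encoded by Srebf1 and Srebf2, sit in the endoplasmic reticulum as precursors and are released by cleavage when membrane sterol is low. Released SREBP switches on genes of both pathways, and dividing stem cells need both products for new membrane.

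Embryonic stem cell markers were found in every library. Of 22 listed markers, 10 lay in the upper lines, and all 10 were at 1 TPM or more. Their summed level was 3765 and 3715 TPM in LCDM, 2957 and 2949 in A2iL, 3630.1 and 3547 in 2iL-F and 3301 and 3507 in 2iL, against 2043 and 2121 in SL. Fibroblast markers, expected where fibroblast feeders are present, went against the feeder labels of 2iL and 2iL-F. Their summed level over 32 genes was 1337 and 1323 TPM in LCDM, 3733 and 3647 in A2iL, 5622 and 5412 in 2iL-F and 987 and 1043 in 2iL, against 6175 and 6476 in SL. Relative to SL, the test called 0 of 32 higher and 31 lower in LCDM, 8 of 32 higher and 15 lower in A2iL, 16 of 32 higher and 15 lower in 2iL-F and 0 of 32 higher and 32 lower in 2iL. In the 2iL libraries 9 and 10 of the 32 were listed at 0, Dcn, Lox, Postn and Bgn among them, and most of the remaining sum came from Sparc and Fn1. In 2iL-F, labelled as free of feeders, 0 of the 32 were at 0. The names 2iL and 2iL-F therefore mean the libraries with those labels. In bulk RNA, fewer cells of a type and less RNA per cell cannot be told apart. The listed values made up 71.0% to 73.0% of the total to which TPM are scaled, and TPM, which are per length, keep no read depth. Nothing in the labels states whether the 2 libraries of a condition are separate cultures. The p-values thus measure a spread between libraries that may be technical.

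All 28 genes differed among the 5 conditions, but so did 90.1% of the 14578 lines tested, by limma's F test on log2(TPM + 1) with an adjusted p below 0.05. Against SL, LCDM had 21 of 28 higher and 4 lower, where 32.2% of all lines were higher and 33.7% lower. A2iL had 21 of 28 higher and 3 lower, against 21.9% and 31.9% of all lines. Of all lines called in A2iL, 40.7% were higher, or 51.3% with median-of-ratios scaling. 2iL-F had 23 of 28 higher and 3 lower, against 28.1% and 37.3%, and 2iL had 22 of 28 higher and 6 lower, against 36.7% and 40.9%. The 4 comparisons share the SL libraries. The median log2 difference of the 28 genes from SL was 0.82 in LCDM, 0.41 in A2iL, 0.83 in 2iL-F and 1.05 in 2iL, while the median of all lines was -0.00029 in LCDM, -0.068 in A2iL, -0.076 in 2iL-F and -0.043 in 2iL. The condition with the highest mean TPM was 2iL for 15 of the 28 genes, and the lowest was SL for 20; of all lines tested, 28.2% were highest in 2iL and 24.5% lowest in SL. As given above, nearly all fibroblast markers were lower than SL in LCDM and 2iL, while in 2iL-F and A2iL markers changed in both directions. In 2iL-F, 16 of the 32 markers were higher than SL and 15 lower. Among the lower, the contractile gene Tagln had 27.6 and 25.9 TPM in 2iL-F, against 884 and 933 in SL. Acta2 had 36.8 and 39.3 TPM in 2iL-F, against 875 and 907 in SL. Among the higher, Col1a1 had 1058 and 974 TPM in 2iL-F, against 366 and 393 in SL. Col3a1 had 361 and 356 TPM in 2iL-F, against 29.2 and 28.8 in SL. Of the 10 stem cell markers, 9 were higher and 0 lower than SL in LCDM, 7 higher and 1 lower in A2iL, 8 higher and 1 lower in 2iL-F and 6 higher and 4 lower in 2iL. The part of either marker list in these differences was not tested. Differences given below are on the log2(TPM + 1) scale with their standard error (SE), and passed the test unless an adjusted p over 0.05 or the words "did not pass" stand beside them. Each SE rests on a spread fitted over all 10 libraries, not on the conditions compared alone.

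**Figure D1:**
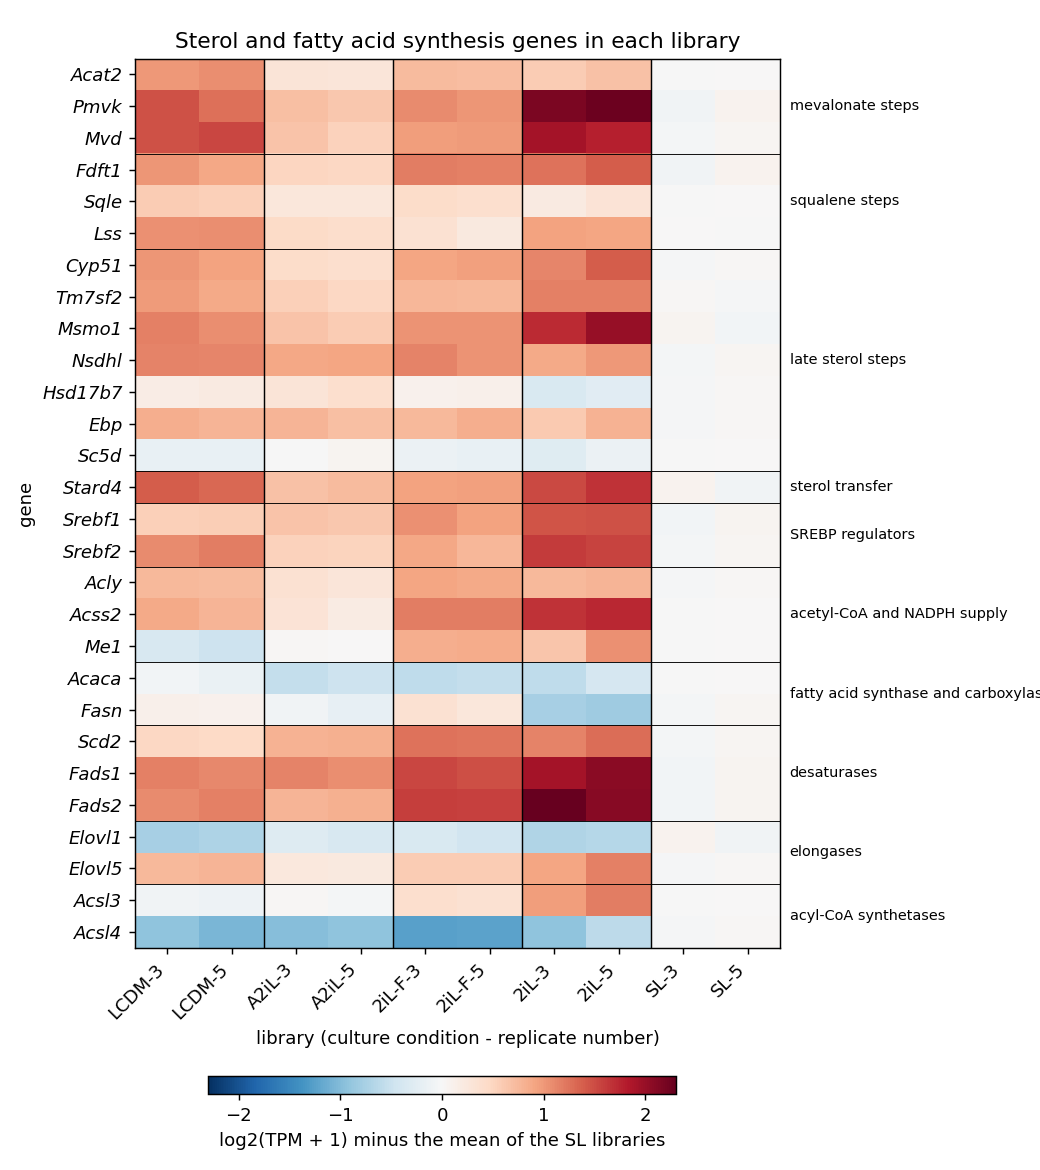
Each row is a gene, grouped by its role, and each column a library; the colour is log2(TPM + 1) minus the mean of the 2 SL libraries, red where higher than in SL. Most sterol and desaturase rows are red in all 8 serum-free libraries, Pmvk, Mvd, Msmo1, Fads1 and Fads2 are darkest in 2iL, Elovl1 and Acsl4 are blue and Fasn is blue in 2iL.

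The regulators themselves were higher in every serum-free medium. Srebf2, which encodes the SREBP most tied to cholesterol genes (chromosome 15, 82147181 to 82205379 of mm10), had 179 and 189 TPM in LCDM, 121 and 120.0 in A2iL, 155 and 142 in 2iL-F, 256 and 246 in 2iL, against 81.0 and 86.1 in SL. Each serum-free library lay above both SL libraries, and 2iL stood highest. The log2 differences from SL were 1.13 ± 0.06 in LCDM, 0.52 ± 0.06 in A2iL, 0.82 ± 0.06 in 2iL-F and 1.58 ± 0.06 in 2iL, with adjusted p from 3.22e-08 to 0.000107 (limma). Srebf1, whose products are most tied to fatty acid genes (chromosome 11, 60199089 to 60222581 of mm10), had 44.6 and 45.3 TPM in LCDM, 48.4 and 47.1 in A2iL, 63.8 and 58.8 in 2iL-F, 84.5 and 85.8 in 2iL, against 28.9 and 31.8 in SL. It also lay above SL in every serum-free library, but in another order, with LCDM and A2iL close together. Srebf1 differed from SL by 0.55 ± 0.06 in LCDM, 0.64 ± 0.06 in A2iL, 0.99 ± 0.06 in 2iL-F and 1.46 ± 0.06 in 2iL. In LCDM, Srebf2 was higher than in A2iL by 0.61 ± 0.06 (adjusted p = 4.66e-05), whereas the difference of Srebf1 was -0.09 ± 0.06 (adjusted p = 0.254).

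Promoter sequence is shown because most of these genes moved together. RefSeq windows (build GRCm38.p6, from 250 bases before to 50 after the start) were held for 23 of the 28 genes and searched on both strands. CCAAT, the box of the factor NF-Y, which works beside SREBP at sterol genes, was in the windows of 19 of 23 genes (82.6%). It was in 42.8% of the 6269 tested and named genes with a window, and in 37.4% of all 32851 windows. GGGCGG, the Sp1 box, was in 19 of 23 as well, against 71.0% of the tested and named genes and 35.7% of all windows. The core of the classical sterol regulatory element, TCACNCCAC, was in 0 of 23, and in 1.52% of the tested and named genes and 1.24% of all windows, which says only that these letters are not in the windows. A match of letters is a description and not a binding site. The CCAAT search matched Fasn, Hsd17b7, Sc5d and Elovl1, which were lower than SL in 2iL. It did not match Acat2 and Fads2, which were higher there, or Acaca and Acsl4, which were lower. The 150 bases before the start are printed for Srebf2, for 3 sterol genes that were higher in each serum-free medium and for Fasn, with CCAAT and GGGCGG, on either strand, in capitals; in Fasn a forward and a reverse CCAAT overlap. RefSeq starts can differ from the GENCODE gene ends given elsewhere. The stretches lie at chr15:82147119-82147268 (plus strand) for Srebf2, chr8:122443423-122443572 (minus strand) for Mvd, chr8:64733579-64733728 (minus strand) for Msmo1, chr5:4104698-4104847 (minus strand) for Cyp51 and chr11:120824548-120824697 (minus strand) for Fasn.
Srebf2: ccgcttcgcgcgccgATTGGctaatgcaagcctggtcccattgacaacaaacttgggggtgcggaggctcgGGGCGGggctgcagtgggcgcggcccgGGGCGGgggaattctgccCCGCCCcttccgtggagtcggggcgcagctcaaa
Mvd: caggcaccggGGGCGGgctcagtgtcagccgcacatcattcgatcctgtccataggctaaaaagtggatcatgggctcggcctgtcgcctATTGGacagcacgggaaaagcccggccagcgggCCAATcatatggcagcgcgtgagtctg
Msmo1: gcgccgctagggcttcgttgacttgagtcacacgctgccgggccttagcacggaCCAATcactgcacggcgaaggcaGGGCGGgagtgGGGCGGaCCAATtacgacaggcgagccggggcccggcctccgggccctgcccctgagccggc
Cyp51: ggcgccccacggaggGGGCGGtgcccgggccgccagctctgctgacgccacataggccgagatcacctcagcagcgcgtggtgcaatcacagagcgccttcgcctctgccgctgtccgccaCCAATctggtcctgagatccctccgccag
Fasn: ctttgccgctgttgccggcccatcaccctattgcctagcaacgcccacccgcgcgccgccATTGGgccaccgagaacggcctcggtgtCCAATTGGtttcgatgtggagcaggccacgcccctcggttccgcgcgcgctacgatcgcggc

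The 3 mevalonate genes were higher than in SL in each serum-free medium. Pmvk, phosphomevalonate kinase (chromosome 3, 89454541 to 89469013 of mm10), had 72.8 and 63.4 TPM in LCDM, 42.4 and 39.8 in A2iL, 55.8 and 53.3 in 2iL-F, 119 and 127 in 2iL, against 24.1 and 27.4 in SL. It differed from SL by 1.37 ± 0.08 in LCDM, 0.66 ± 0.08 in A2iL, 1.06 ± 0.08 in 2iL-F and 2.21 ± 0.08 in 2iL, of which that in 2iL was a 4.77-fold ratio of mean TPM (adjusted p = 3.82e-08, limma), and the lowest serum-free library was above the higher SL library. Mvd, which removes a carboxyl group from mevalonate diphosphate (chromosome 8, 122433601 to 122443422 of mm10), had 141 and 147 TPM in LCDM, 79.6 and 73.5 in A2iL, 99.4 and 101 in 2iL-F, 192 and 176 in 2iL, against 49.1 and 51.7 in SL. Here 2iL and LCDM were well above 2iL-F and A2iL, and the differences from SL were 1.50 ± 0.06 in LCDM, 0.59 ± 0.06 in A2iL, 0.98 ± 0.06 in 2iL-F and 1.85 ± 0.06 in 2iL. Acat2, the cytosolic thiolase that starts the pathway, kept another order and was highest in LCDM, with 119 and 126 TPM in LCDM, 73.2 and 72.6 in A2iL, 99.0 and 97.5 in 2iL-F, 89.7 and 96.0 in 2iL, against 58.9 and 60.2 in SL. Its differences from SL were 1.03 ± 0.05 in LCDM, 0.29 ± 0.05 in A2iL, 0.71 ± 0.05 in 2iL-F and 0.63 ± 0.05 in 2iL. It was higher in LCDM than in A2iL by 0.74 ± 0.05 (adjusted p = 4.93e-06). The difference of 2iL-F from 2iL did not pass (0.08 ± 0.05, adjusted p = 0.173), although both 2iL-F libraries were above both 2iL libraries.

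The squalene steps rose by unequal amounts. Fdft1, squalene synthase (chromosome 14, 63145150 to 63179578 of mm10), had 81.7 and 74.6 TPM in LCDM, 56.7 and 55.9 in A2iL, 91.1 and 90.6 in 2iL-F, 96.0 and 106 in 2iL, against 37.8 and 42.0 in SL. Every serum-free library was above SL, by 0.95 ± 0.07 in LCDM, 0.49 ± 0.07 in A2iL, 1.17 ± 0.07 in 2iL-F and 1.32 ± 0.07 in 2iL. Sqle, squalene epoxidase, a rate-limiting step late in the pathway (chromosome 15, 59315077 to 59331192 of mm10), had 71.5 and 69.6 TPM in LCDM, 56.5 and 56.9 in A2iL, 63.6 and 61.9 in 2iL-F, 54.4 and 58.8 in 2iL, against 47.2 and 47.3 in SL. Its differences from SL were 0.57 ± 0.05 in LCDM, 0.26 ± 0.05 in A2iL, 0.40 ± 0.05 in 2iL-F and 0.25 ± 0.05 in 2iL, with adjusted p from 1.23e-05 to 0.00214. In 2iL, Sqle thus stood 1.20-fold above SL, beside 3.65-fold for Mvd in the same libraries. Lss, which closes the ring of lanosterol (chromosome 10, 76531588 to 76557138 of mm10), had 30.5 and 31.3 TPM in LCDM, 19.7 and 19.1 in A2iL, 18.5 and 16.8 in 2iL-F, 28.1 and 27.8 in 2iL, against 14.4 and 14.2 in SL. LCDM and 2iL were high and 2iL-F and A2iL less far above SL, and the difference between A2iL and 2iL-F was 0.13 ± 0.06 (adjusted p = 0.0953).

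Against SL, the 7 late sterol genes divided into 6 higher and 1 lower in LCDM, 6 higher and 0 lower in A2iL, 5 higher and 0 lower in 2iL-F and 5 higher and 2 lower in 2iL. For comparison, 32.2% of all lines were higher and 33.7% lower in LCDM, 21.9% and 31.9% in A2iL, 28.1% and 37.3% in 2iL-F, and 36.7% and 40.9% in 2iL. Msmo1, the methylsterol oxidase (chromosome 8, 64718139 to 64733792 of mm10), had 49.7 and 46.9 TPM in LCDM, 34.7 and 33.2 in A2iL, 45.5 and 45.3 in 2iL-F, 74.0 and 90.1 in 2iL, against 22.8 and 20.7 in SL. It reached 3.78 times its SL mean in 2iL, and the differences from SL were 1.12 ± 0.09 in LCDM, 0.62 ± 0.09 in A2iL, 1.03 ± 0.09 in 2iL-F and 1.86 ± 0.09 in 2iL. Cyp51, the lanosterol demethylase (chromosome 5, 4081145 to 4104746 of mm10), had 82.6 and 77.5 TPM in LCDM, 54.7 and 53.3 in A2iL, 76.4 and 78.8 in 2iL-F, 89.8 and 108 in 2iL, against 39.7 and 41.3 in SL, with differences from SL of 0.96 ± 0.08 in LCDM, 0.41 ± 0.08 in A2iL, 0.92 ± 0.08 in 2iL-F and 1.26 ± 0.08 in 2iL. The sterol reductase gene Tm7sf2 had 27.8 and 25.6 TPM in LCDM, 20.4 and 19.3 in A2iL, 23.8 and 23.3 in 2iL-F, 31.4 and 31.5 in 2iL, against 13.8 and 13.4 in SL. Its differences were 0.92 ± 0.06 in LCDM, 0.52 ± 0.06 in A2iL, 0.75 ± 0.06 in 2iL-F and 1.15 ± 0.06 in 2iL. These 3 genes shared an order, with 2iL highest and SL lowest. Nsdhl, which acts with Msmo1 to remove methyl groups, had 35.1 and 34.9 TPM in LCDM, 29.5 and 29.9 in A2iL, 35.2 and 32.5 in 2iL-F, 28.98 and 31.7 in 2iL, against 14.9 and 15.9 in SL. Relative to SL it differed by 1.13 ± 0.06 in LCDM, 0.90 ± 0.06 in A2iL, 1.09 ± 0.06 in 2iL-F and 0.93 ± 0.06 in 2iL. Ebp, a sterol isomerase, had 22.8 and 21.7 TPM in LCDM, 21.6 and 20.3 in A2iL, 21.3 and 22.6 in 2iL-F, 19.1 and 22.0 in 2iL, against 12.04 and 12.4 in SL. It was above SL in every serum-free library, by 0.81 ± 0.08 in LCDM, 0.73 ± 0.08 in A2iL, 0.79 ± 0.08 in 2iL-F and 0.70 ± 0.08 in 2iL. Between media, its differences of 2iL-F from 2iL (0.10 ± 0.08), A2iL from 2iL (0.03 ± 0.08), A2iL from 2iL-F (-0.07 ± 0.08) and LCDM from A2iL (0.08 ± 0.08) did not pass, with adjusted p from 0.285 to 0.716.

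Another 2 late genes, Hsd17b7 and Sc5d, changed little or unevenly. Hsd17b7, the ketosteroid reductase of the demethylation complex (chromosome 1, 169949535 to 169969241 of mm10), had 12.7 and 13.1 TPM in LCDM, 14.0 and 14.9 in A2iL, 12.03 and 12.1 in 2iL-F, 8.50 and 9.18 in 2iL, against 10.97 and 11.4 in SL. The 2iL libraries were below SL (difference -0.31 ± 0.06, adjusted p = 0.00166) and the A2iL libraries above it (0.35 ± 0.06, adjusted p = 0.00164). LCDM was higher by 0.19 ± 0.06, and 2iL-F did not pass (0.10 ± 0.06, adjusted p = 0.172). Sc5d, the desaturase that follows Ebp (chromosome 9, 42251595 to 42264256 of mm10), had 15.7 and 15.8 TPM in LCDM, 17.8 and 18.8 in A2iL, 16.1 and 15.9 in 2iL-F, 14.6 and 16.2 in 2iL, against 17.7 and 18.0 in SL. It lay slightly below SL in LCDM (-0.17 ± 0.06, adjusted p = 0.0324) and 2iL (-0.21 ± 0.06, adjusted p = 0.0128), and in 2iL-F (-0.15 ± 0.06) and A2iL (0.03 ± 0.06) it did not pass. Stard4, which carries cholesterol between membranes, moved with the majority, at 35.5 and 34.0 TPM in LCDM, 21.3 and 22.1 in A2iL, 25.3 and 25.9 in 2iL-F, 38.9 and 43.3 in 2iL, against 13.8 and 12.1 in SL. From SL it differed by 1.36 ± 0.07 in LCDM, 0.71 ± 0.07 in A2iL, 0.93 ± 0.07 in 2iL-F and 1.59 ± 0.07 in 2iL.

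Summed over the 13 genes from Acat2 to Sc5d, the sterol pathway had 763 and 747 TPM in LCDM, 521 and 507 in A2iL, 658 and 651 in 2iL-F, 846 and 901 in 2iL, against 363 and 376 in SL. The 12 genes of the fatty acid side summed to 1198 and 1188 TPM in LCDM, 1156 and 1141 in A2iL, 1637 and 1603 in 2iL-F, 1681 and 1753 in 2iL, against 828 and 869 in SL. Scd2 had the highest level among them in every library. The sterol sum was higher in LCDM than in 2iL-F, and the fatty acid sum lower in LCDM than in 2iL-F. Fibroblast marker sums, as given above, were lowest in 2iL and LCDM.

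**Figure D2:**
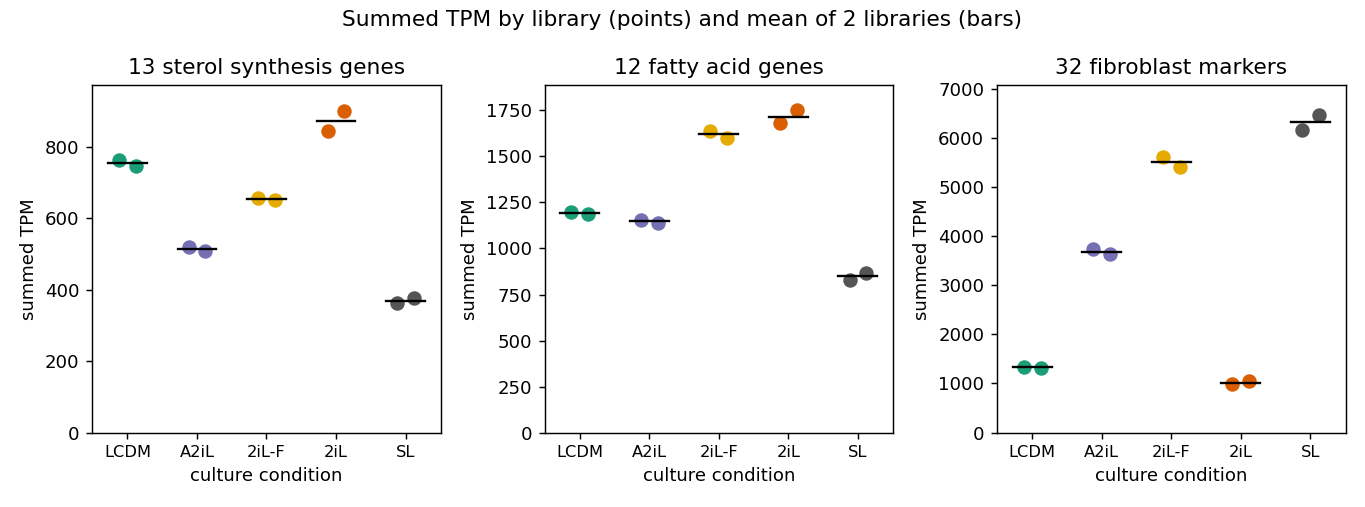
Points are libraries and bars the mean of 2 libraries, in summed TPM on axes that start at 0, for 13 sterol genes (left), 12 fatty acid genes (middle) and 32 fibroblast markers (right). LCDM lies between 2iL and 2iL-F in the sterol panel and nearest to A2iL in the fatty acid panel. The fibroblast sum is 1337 and 1323 TPM in LCDM and 987 and 1043 in 2iL.

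Supply of acetyl-CoA and NADPH differed by gene. Acly, ATP citrate lyase, which makes acetyl-CoA from citrate (chromosome 11, 100476353 to 100528000 of mm10), had 291 and 289.6 TPM in LCDM, 221 and 212 in A2iL, 328 and 318 in 2iL-F, 293 and 298 in 2iL, against 171 and 176 in SL. It was above SL in every serum-free library, by 0.74 ± 0.04 in LCDM, 0.31 ± 0.04 in A2iL, 0.89 ± 0.04 in 2iL-F and 0.76 ± 0.04 in 2iL. Acss2, which makes acetyl-CoA from acetate (chromosome 2, 155517948 to 155585724 of mm10), had 7.02 and 6.54 TPM in LCDM, 4.42 and 3.96 in A2iL, 8.89 and 8.94 in 2iL-F, 12.9 and 13.6 in 2iL, against 3.35 and 3.397 in SL. The order was 2iL, 2iL-F, LCDM, A2iL and SL from high to low. It was 3.92-fold higher in 2iL than in SL (1.70 ± 0.07, adjusted p = 7.63e-08) and 1.24-fold in A2iL (0.25 ± 0.07, adjusted p = 0.0189). Me1, the cytosolic malic enzyme, a source of NADPH (chromosome 9, 86581371 to 86695953 of mm10), had 23.2 and 21.5 TPM in LCDM, 31.1 and 30.5 in A2iL, 55.0 and 55.8 in 2iL-F, 48.2 and 63.9 in 2iL, against 30.3 and 30.7 in SL. The libraries with the MEK inhibitor, 2iL-F and 2iL, were high, A2iL overlapped SL and LCDM was below SL. The differences from SL were -0.43 ± 0.11 in LCDM, 0.01 ± 0.11 in A2iL, 0.84 ± 0.11 in 2iL-F and 0.84 ± 0.11 in 2iL, and that of A2iL did not pass (adjusted p = 0.932). The 2 libraries of 2iL were 1.33-fold apart for Me1, the widest gap between replicates among the 28 genes.

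**Figure D3:**
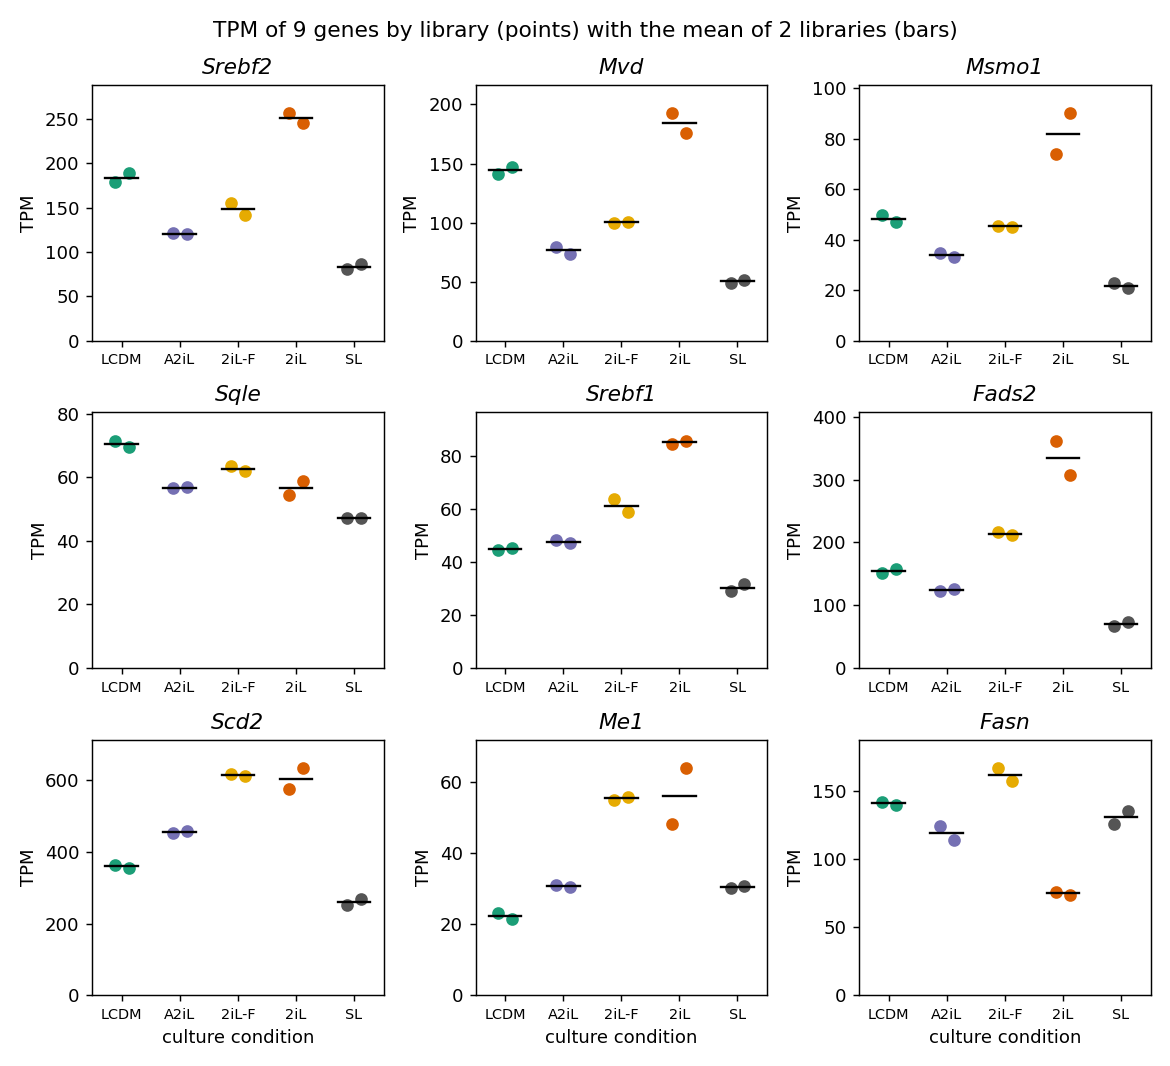
Points are libraries and bars the mean of 2 libraries, in TPM on axes that start at 0, for 9 genes in the 5 conditions. Srebf2, Mvd and Msmo1 have their highest level in 2iL, Scd2 and Me1 are high in 2iL-F and 2iL alike, and Fasn is lowest in 2iL.

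Of the 2 enzymes that build the fatty acid chain, Fasn rose in 2iL-F and fell in 2iL, and Acaca fell in 3 of the 4 serum-free media. Fasn, fatty acid synthase (chromosome 11, 120805846 to 120824547 of mm10), had 142 and 140.4 TPM in LCDM, 124 and 114 in A2iL, 167 and 158 in 2iL-F, 76.4 and 74.0 in 2iL, against 126 and 136 in SL. It was lower than SL in 2iL (difference -0.79 ± 0.06, adjusted p = 2.43e-06) and higher in 2iL-F (0.31 ± 0.06, adjusted p = 0.00157), although both have the same medium by label. The differences of LCDM (0.11 ± 0.06, adjusted p = 0.134) and A2iL (-0.14 ± 0.06, adjusted p = 0.0782) from SL did not pass. The LCDM libraries were above both SL libraries, and the A2iL libraries below both. Acaca, the carboxylase that makes malonyl-CoA (chromosome 11, 84129672 to 84401651 of mm10), had 12.7 and 11.8 TPM in LCDM, 8.76 and 9.28 in A2iL, 8.49 and 8.79 in 2iL-F, 8.55 and 9.92 in 2iL, against 13.2 and 13.3 in SL. It fell in A2iL (-0.51 ± 0.08), 2iL-F (-0.56 ± 0.08) and 2iL (-0.48 ± 0.08), with adjusted p from 0.00024 to 0.000667, and in LCDM the difference was -0.10 ± 0.08 (adjusted p = 0.258).

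All 3 desaturase genes were higher than in SL in each serum-free medium. Fads2, which introduces a double bond early in the synthesis of polyunsaturated fatty acids (chromosome 19, 10062765 to 10101746 of mm10), had 152 and 158 TPM in LCDM, 123 and 125 in A2iL, 216 and 212 in 2iL-F, 362 and 307 in 2iL, against 67.7 and 74.1 in SL. Its differences from SL were 1.12 ± 0.08 in LCDM, 0.80 ± 0.08 in A2iL, 1.58 ± 0.08 in 2iL-F and 2.22 ± 0.08 in 2iL. The rise in 2iL, 4.72-fold, and that of Pmvk were the largest log2 differences from SL among the 28 genes (for Fads2, adjusted p = 2.3e-08). Fads1, a neighbouring gene whose product acts after Fads2 (chromosome 19, 10182888 to 10196877 of mm10), had 69.4 and 66.7 TPM in LCDM, 67.9 and 65.1 in A2iL, 90.0 and 87.2 in 2iL-F, 117 and 131 in 2iL, against 29.1 and 31.8 in SL. It exceeded SL by 1.14 ± 0.07 in LCDM, 1.10 ± 0.07 in A2iL, 1.51 ± 0.07 in 2iL-F and 1.99 ± 0.07 in 2iL. The LCDM and A2iL libraries overlapped (difference 0.03 ± 0.07, adjusted p = 0.699), and both groups were below 2iL-F and 2iL. Scd2, the stearoyl-CoA desaturase with the highest TPM of the 28 genes (chromosome 19, 44293674 to 44306864 of mm10), had 363 and 355 TPM in LCDM, 451 and 458 in A2iL, 615 and 610.0 in 2iL-F, 574 and 632 in 2iL, against 252 and 268 in SL. 2iL-F and 2iL overlapped, LCDM was the lowest of the serum-free media, and the differences from SL were 0.47 ± 0.05 in LCDM, 0.81 ± 0.05 in A2iL, 1.24 ± 0.05 in 2iL-F and 1.21 ± 0.05 in 2iL.

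Elongases and acyl-CoA synthetases split within each pair. Elovl5, which lengthens polyunsaturated chains (chromosome 9, 77917364 to 77984519 of mm10), had 71.4 and 72.5 TPM in LCDM, 49.5 and 49.1 in A2iL, 63.0 and 63.2 in 2iL-F, 79.1 and 95.3 in 2iL, against 40.9 and 43.0 in SL. Elovl1, which acts on very long saturated chains (chromosome 4, 118428093 to 118432953 of mm10), had 13.5 and 14.1 TPM in LCDM, 19.1 and 18.0 in A2iL, 18.4 and 17.3 in 2iL-F, 14.3 and 14.6 in 2iL, against 25.1 and 22.3 in SL. The log2 differences of Elovl5 from SL were 0.76 ± 0.08 in LCDM, 0.23 ± 0.08 in A2iL, 0.58 ± 0.08 in 2iL-F and 1.03 ± 0.08 in 2iL, all higher. Those of Elovl1 were -0.73 ± 0.07 in LCDM, -0.34 ± 0.07 in A2iL, -0.39 ± 0.07 in 2iL-F and -0.67 ± 0.07 in 2iL, all lower. Acsl4, a synthetase that prefers arachidonate (chromosome X, 142317993 to 142390535 of mm10), had 14.1 and 12.9 TPM in LCDM, 13.5 and 14.0 in A2iL, 11.1 and 11.2 in 2iL-F, 14.2 and 17.9 in 2iL, against 27.2 and 28.2 in SL. Every serum-free library was below SL, with differences of -0.99 ± 0.10 in LCDM, -0.96 ± 0.10 in A2iL, -1.24 ± 0.10 in 2iL-F and -0.76 ± 0.10 in 2iL. Acsl3, a synthetase found on lipid droplets (chromosome 1, 78657825 to 78707743 of mm10), had 39.6 and 38.7 TPM in LCDM, 42.5 and 40.6 in A2iL, 55.2 and 53.5 in 2iL-F, 82.1 and 95.5 in 2iL, against 41.6 and 42.1 in SL. It rose in 2iL-F (0.37 ± 0.07) and 2iL (1.06 ± 0.07). The differences of LCDM (-0.09 ± 0.07, adjusted p = 0.256) and A2iL (-0.01 ± 0.07, adjusted p = 0.923) from SL did not pass. Both LCDM libraries were below both SL libraries, while A2iL overlapped SL. The spread behind this SE includes the 2iL libraries, which were far apart.

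The comparisons between serum-free media share libraries with each other. Those labelled 2iL-F and 2iL share a medium and differ by label in feeders. In 2iL-F, 5 of 28 genes were higher and 15 lower than in 2iL, where 29.2% of all lines were higher and 32.5% lower. Pmvk (-1.16 ± 0.08), Mvd (-0.87 ± 0.06), Msmo1 (-0.83 ± 0.09) and Srebf2 (-0.75 ± 0.06) fell, with adjusted p from 4.39e-06 to 6.14e-05. The 5 higher genes were Fasn (1.10 ± 0.06), Hsd17b7 (0.41 ± 0.06), Elovl1 (0.28 ± 0.07), Sqle (0.15 ± 0.05) and Acly (0.13 ± 0.04). For Fasn, the lower 2iL-F library was over the higher 2iL library by a wide margin. The count of higher genes fell without the 2iL library numbered 3 and rose without the 2iL library numbered 5. The median difference of all lines, -0.019 with every library, moved the same way, to -0.057 and to 0.017. The count also fell without the 2iL-F library numbered 3, where that median was -0.022. All 32 fibroblast markers were higher in 2iL-F than in 2iL. Of the 10 stem cell markers, 3 were higher and 2 lower in 2iL-F. The part of either list in these differences was not tested.

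A2iL holds a Src inhibitor in place of the MEK inhibitor of 2iL-F and 2iL, and most of the 28 genes were lower in it than in either. Against 2iL, 4 of 28 genes were higher and 19 lower in A2iL (33.2% and 36.2% of all lines), with Pmvk at -1.56 ± 0.08, Acss2 at -1.46 ± 0.07 and Fads2 at -1.42 ± 0.08. Hsd17b7 (0.65 ± 0.06), Fasn (0.66 ± 0.06), Elovl1 (0.34 ± 0.07) and Sc5d (0.24 ± 0.06) were the 4 higher genes. Against 2iL-F, 3 of 28 genes were higher and 21 lower in A2iL, where 22.2% of all lines were higher and 23.0% lower. Here Acss2 (-0.94 ± 0.07), Me1 (-0.83 ± 0.11), Fads2 (-0.78 ± 0.08) and Fdft1 (-0.68 ± 0.07) had the largest falls, with adjusted p from 1.47e-05 to 0.000381. The fibroblast sum was lower in A2iL than in 2iL-F, but the markers were mixed, with 11 of 32 higher and 17 lower. Against 2iL the sum was higher in A2iL, with 31 of 32 markers higher and 1 lower. Of the 10 stem cell markers, 0 were higher and 6 lower in A2iL than in 2iL-F, and 3 higher and 6 lower than in 2iL. The part of either list was not tested. The 3 genes higher in A2iL than in 2iL-F were Hsd17b7, Sc5d and Acsl4, by at most 0.29. That count was 1 without either SL library, either LCDM library, the A2iL library numbered 3 or the 2iL-F library numbered 3, and 0 without the A2iL or the 2iL-F library numbered 5.

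**Figure D4:**
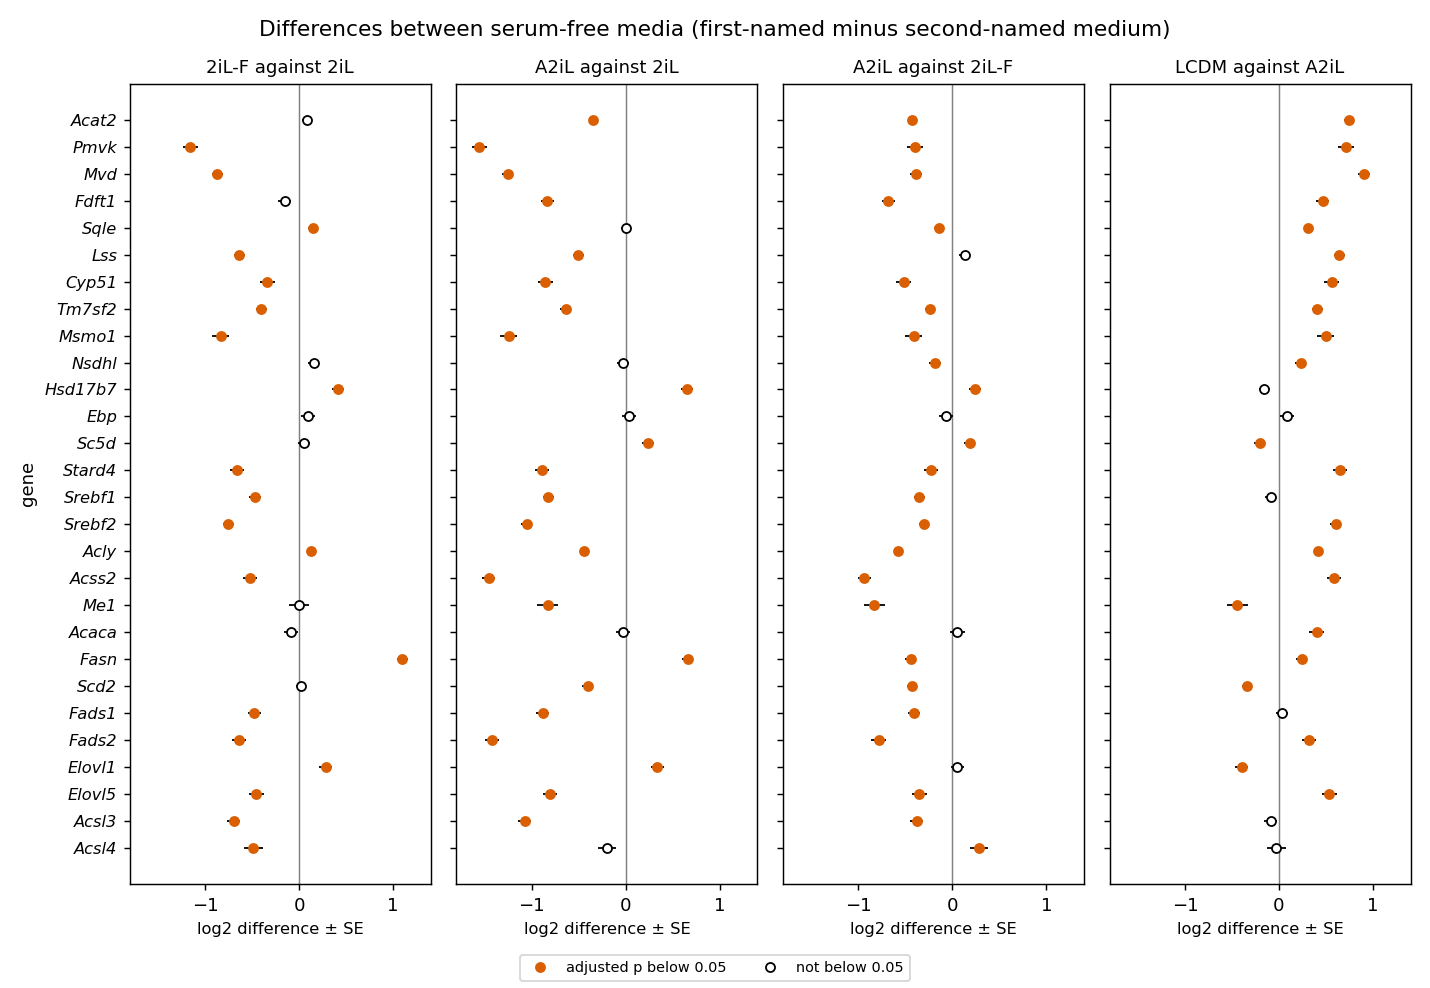
Each point is the log2(TPM + 1) difference of a gene between 2 serum-free media, first-named minus second-named, with its SE from limma; filled points have an adjusted p below 0.05. Most points lie left of 0 in the 3 left panels and right of 0 for LCDM against A2iL, with Fasn at 1.10 in 2iL-F against 2iL.

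Most sterol genes were higher in LCDM than in A2iL. In LCDM, 18 of 28 genes were higher and 4 lower than in A2iL, where 31.1% of all lines were higher and 22.9% lower. Of all lines called there, 57.6% were higher, or 47.6% with median-of-ratios scaling. Among the 13 sterol genes 10 were higher and 1 lower, with a median of 0.47, and among the 12 fatty acid genes 6 and 3, with a median of 0.14; all lines had a median of 0.061. Mvd (0.91 ± 0.06), Acat2 (0.74 ± 0.05) and Pmvk (0.71 ± 0.08) rose most, with adjusted p from 4.93e-06 to 0.000154. The 4 lower genes were Me1 (-0.44 ± 0.11), Elovl1 (-0.40 ± 0.07), Scd2 (-0.34 ± 0.05) and Sc5d (-0.21 ± 0.06). Without the LCDM library numbered 5 that count was 2, and with median-of-ratios scaling 7. Fibroblast markers were lower in LCDM than in A2iL for 30 of 32 and higher for 1. Of the 10 stem cell markers, 7 were higher and 1 lower in LCDM. The part of either list was not tested.

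Further genes of sterol synthesis, from a list of 12 of which 8 could be named, moved in both directions. Against SL, 4 of 8 were higher and 2 lower in LCDM, 4 of 8 higher and 3 lower in A2iL, 4 of 8 higher and 3 lower in 2iL-F and 5 of 8 higher and 3 lower in 2iL. Over all lines, 32.2% were higher and 33.7% lower in LCDM, 21.9% and 31.9% in A2iL, 28.1% and 37.3% in 2iL-F, and 36.7% and 40.9% in 2iL. The median difference of the 8 was 0.23 in LCDM, 0.14 in A2iL, 0.19 in 2iL-F and 0.54 in 2iL. Erg28, a scaffold of the sterol demethylation enzymes, had 34.9 and 35.8 TPM in LCDM, 23.5 and 20.96 in A2iL, 30.0 and 27.4 in 2iL-F, 34.5 and 36.7 in 2iL, against 15.9 and 15.2 in SL. It rose in every serum-free medium, by 1.14 ± 0.07 in LCDM, 0.49 ± 0.07 in A2iL, 0.84 ± 0.07 in 2iL-F and 1.14 ± 0.07 in 2iL. Cyb5b, an outer mitochondrial cytochrome that passes electrons to other enzymes, had 85.5 and 84.0 TPM in LCDM, 89.6 and 92.1 in A2iL, 127 and 131 in 2iL-F, 153 and 155 in 2iL, against 88.1 and 90.3 in SL. Cyb5r3, a reductase that supplies electrons to cytochromes of this kind, had 127 and 133 TPM in LCDM, 123 and 124 in A2iL, 125 and 122 in 2iL-F, 147 and 145 in 2iL, against 97.4 and 97.0 in SL.

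For sensing, uptake and export of sterols, 19 of 31 listed genes were tested. Of these 9 of 19 were higher and 6 lower than SL in LCDM, 7 of 19 higher and 1 lower in A2iL, 9 of 19 higher and 5 lower in 2iL-F and 13 of 19 higher and 6 lower in 2iL. The shares of all lines were 32.2% higher and 33.7% lower in LCDM, 21.9% and 31.9% in A2iL, 28.1% and 37.3% in 2iL-F, and 36.7% and 40.9% in 2iL. The 19 had a median difference of 0.061 in LCDM, 0.0078 in A2iL, 0.11 in 2iL-F and 0.57 in 2iL. Apoe, a lipoprotein component, had 837 and 895 TPM in LCDM, 1403 and 1367 in A2iL, 1178 and 1139 in 2iL-F, 1216 and 1012 in 2iL, against 307 and 312 in SL. Soat1, which esterifies cholesterol for storage, fell, with 7.21 and 6.20 TPM in LCDM, 10.8 and 10.6 in A2iL, 3.77 and 4.22 in 2iL-F, 3.64 and 4.93 in 2iL, against 20.98 and 21.2 in SL. Abca1, a cholesterol exporter that sterol excess induces, had 1.13 and 1.12 TPM in LCDM, 5.01 and 4.44 in A2iL, 4.75 and 3.88 in 2iL-F, 2.88 and 3.61 in 2iL, against 4.86 and 5.01 in SL. Abcg1, another exporter, had 3.25 and 3.15 TPM in LCDM, 9.33 and 9.19 in A2iL, 7.01 and 6.42 in 2iL-F, 20.1 and 21.3 in 2iL, against 6.96 and 7.24 in SL. LCDM was lowest for both exporters, and Abcg1 was highest in 2iL.

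Other genes of fatty acid synthesis, elongation and activation, 24 of 35 listed, had 14 of 24 higher and 5 lower than SL in LCDM, 7 of 24 higher and 8 lower in A2iL, 9 of 24 higher and 6 lower in 2iL-F and 14 of 24 higher and 7 lower in 2iL. Across all lines, 32.2% were higher and 33.7% lower in LCDM, 21.9% and 31.9% in A2iL, 28.1% and 37.3% in 2iL-F, and 36.7% and 40.9% in 2iL. The 24 had a median difference of 0.24 in LCDM, 0.055 in A2iL, 0.12 in 2iL-F and 0.45 in 2iL. Acss1, the mitochondrial acetate-activating enzyme, had 6.50 and 6.11 TPM in LCDM, 12.3 and 12.1 in A2iL, 28.1 and 28.9 in 2iL-F, 48.6 and 49.0 in 2iL, against 1.51 and 1.40 in SL. The elongase Elovl7 had 4.43 and 4.05 TPM in LCDM, 6.17 and 5.23 in A2iL, 8.98 and 7.83 in 2iL-F, 17.1 and 22.4 in 2iL, against 1.46 and 1.05 in SL. Tecr, which completes each elongation cycle, had 251 and 268 TPM in LCDM, 171 and 167 in A2iL, 264 and 243 in 2iL-F, 495 and 461 in 2iL, against 122 and 129 in SL. All 3 rose in each serum-free medium and were highest in 2iL. Slc25a1, which exports citrate from mitochondria for Acly, rose by 0.46 in LCDM, 0.52 in A2iL, 1.02 in 2iL-F and 0.90 in 2iL. Fads3, a relative of Fads1 and Fads2, was low in 2iL and LCDM, where fibroblast markers were low too, with 1.99 and 2.62 TPM in LCDM, 9.73 and 10.9 in A2iL, 25.7 and 24.9 in 2iL-F, 0.241 and 0.353 in 2iL, against 16.7 and 14.2 in SL. Fatty acid oxidation genes, 20 of 27 listed, had 12 of 20 higher and 4 lower than SL in LCDM, 7 of 20 higher and 2 lower in A2iL, 11 of 20 higher and 3 lower in 2iL-F and 12 of 20 higher and 3 lower in 2iL. All lines tested gave 32.2% higher and 33.7% lower in LCDM, 21.9% and 31.9% in A2iL, 28.1% and 37.3% in 2iL-F, and 36.7% and 40.9% in 2iL. The 20 had a median difference of 0.41 in LCDM, 0.15 in A2iL, 0.22 in 2iL-F and 0.38 in 2iL. Cpt1a, the gate of fatty acids into mitochondria, had 108 and 105 TPM in LCDM, 51.9 and 50.6 in A2iL, 76.1 and 77.0 in 2iL-F, 91.0 and 102 in 2iL, against 19.2 and 19.7 in SL. Acadvl, a dehydrogenase for very long chains, had 32.5 and 29.2 TPM in LCDM, 40.8 and 40.3 in A2iL, 29.2 and 28.5 in 2iL-F, 13.9 and 14.9 in 2iL, against 50.3 and 45.7 in SL. Cpt1a was thus above SL and Acadvl below SL in every serum-free library.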

How the data were processed

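RNA was purified with a Qiagen kit and sequenced after NEBNext Ultra library preparation, per the labels' protocols. The submitters' processing notes name mm10, Bowtie2, RSEM and DESeq2, each with its version not given in the sources used here, and R 3.4.2. The authors deposited TPM, scaled to each library's total, so depth is unknown and no counting interval is given.

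Symbols were used in the upper lines of the table only. Of 162 broadly expressed genes there, 99.4% had 5 TPM or more on their own line. Of 82 such genes in the lower lines 46.3% did, and 91.5% on the next line. The members and gene lists were chosen with earlier results of these data known. Some genes of the other lists are not reported here.

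Log2(TPM + 1) values of the 14578 lines with at least 1 TPM in 2 or more libraries entered a limma fit (version 3.58.1, R 4.3.3; a mean per condition over 10 libraries, eBayes with trend), tested on simulated data. Changes of low genes are understated on this scale. P-values are two-sided, with Benjamini-Hochberg adjustment over all lines within each of 8 comparisons and the F test, at 0.05. From other lists, the 4 genes with the highest TPM and the 4 called with the largest difference per comparison could be named. Insig2 falls outside this rule and was named after values were seen. The settings tried were a pseudocount of 0.1, no filter or a 5 TPM filter, median-of-ratios scaling, quantile normalisation, a replicate block, only the 4 libraries compared and each library left out. Fits without 2iL and 2iL-F, and on the named lines alone, were chosen after seeing the data. Gene coordinates are from GENCODE vM21.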

Additional observations from a re-analysis of the deposited data

Results flagged for a closer look

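Genes are given here where 2 serum-free media were called in opposite directions against SL, or where all their libraries lay on opposite sides of both SL libraries. Fasn was called higher than SL in 2iL-F and lower in 2iL, and the difference of 2iL-F from 2iL was 1.10 on the log2 scale (adjusted p = 8.43e-07, limma). Hsd17b7 was called higher than SL in A2iL and lower in 2iL, with a difference of 0.65 (adjusted p = 1.93e-05). Hsd17b7 also lay on opposite sides of SL in 2iL-F, which was not called against SL, and 2iL, with a difference of 0.41 (adjusted p = 0.000472). So did Fasn in A2iL and 2iL-F, with -0.44 (adjusted p = 0.000351), and in LCDM and A2iL, with 0.24 (adjusted p = 0.00728); Fasn in LCDM and in A2iL was not called against SL. Between LCDM and 2iL the difference itself was not tested. It was -1.27 for Me1 and -1.16 for Acsl3, both lower in LCDM, and 0.90 for Fasn and 0.50 for Hsd17b7, both higher in LCDM. LCDM against 2iL-F, also not tested, gave -1.27 for Me1 and -0.46 for Acsl3. Me1 and Hsd17b7 in LCDM were called against SL, while Acsl3 (adjusted p = 0.256, limma) and Fasn (adjusted p = 0.134) in LCDM were not.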

How the results depend on the processing

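Of 4116 values of single genes under another setting, 3978 kept their direction and their side of the threshold. 91 lost the call, 24 gained it and 23 changed sign; those 23 had not been called as reported, and the cause was not tested. With median-of-ratios scaling these were Acsl3 in A2iL against SL (0.073), Me1 in 2iL-F against 2iL (0.022) and Fads1 in LCDM against A2iL (-0.045). With quantile normalisation they were Acsl3 in A2iL against SL (0.094), Scd2 in 2iL-F against 2iL (-0.098), Me1 in 2iL-F against 2iL (0.048), Nsdhl in A2iL against 2iL (0.046) and Fads1 in LCDM against A2iL (-0.032). When each library was left out in turn, the ranges spanned 0 for Scd2 in 2iL-F against 2iL (-0.045 to 0.093), Sc5d in 2iL-F against 2iL (-0.014 to 0.12), Sqle in A2iL against 2iL (-0.051 to 0.059), Ebp in A2iL against 2iL (-0.065 to 0.13), Acaca in 2iL-F against 2iL (-0.18 to 0.013), Me1 in 2iL-F against 2iL (-0.20 to 0.20), Acaca in A2iL against 2iL (-0.13 to 0.068), Nsdhl in A2iL against 2iL (-0.091 to 0.035), Sc5d in A2iL against SL (-0.0040 to 0.070), Acsl3 in A2iL against SL (-0.042 to 0.023) and Acsl4 in LCDM against A2iL (-0.086 to 0.032). Without the 2iL library numbered 5, Me1 in 2iL-F against 2iL was called (0.20, adjusted p = 0.0177).

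Counts of called genes stayed within 1.5 times under most settings. The genes higher in 2iL-F than in 2iL, 5 as reported, were 8 with quantile normalisation, 3 with only the 4 libraries compared and 2 to 9 with a library left out. Those lower in LCDM than in A2iL, 4 as reported, were 7 with median-of-ratios scaling and 2 to 5 with a library left out. Those higher in A2iL than in 2iL-F, 3 as reported, were 0 to 3 with a library left out. In a fit with neither 2iL nor 2iL-F, 21 genes were higher than SL in LCDM and 21 in A2iL.

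Deviations of same-numbered libraries from their condition's mean correlated at -0.131 to 0.075 over 10 pairs of conditions. These values cannot settle what same-numbered libraries share beyond the number. With a replicate block, the genes higher than SL were 21 in LCDM, 21 in A2iL, 23 in 2iL-F and 22 in 2iL, and 3 single-gene calls were lost. TPM without depth set the limit on low genes such as Acss2.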

Other observations

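Scap, which escorts SREBP to the compartment where it is cleaved, was picked out, with Insig2 and Mbtps1, after values were seen. It had 18.4 and 19.8 TPM in LCDM, 28.1 and 28.6 in A2iL, 20.5 and 20.3 in 2iL-F, 11.2 and 11.7 in 2iL, against 30.7 and 32.7 in SL. By limma, its log2 difference from SL was -0.70 ± 0.06 in LCDM (adjusted p = 1.06e-05), -0.61 ± 0.06 in 2iL-F (adjusted p = 2.57e-05) and -1.40 ± 0.06 in 2iL (adjusted p = 7.2e-08), while A2iL did not pass (-0.16 ± 0.06, adjusted p = 0.0503). Insig2, which retains Scap in the endoplasmic reticulum, had 9.32 and 10.1 TPM in LCDM, 13.3 and 13.5 in A2iL, 10.01 and 10.1 in 2iL-F, 7.60 and 8.68 in 2iL, against 12.9 and 13.1 in SL. Both were lowest in 2iL, where Srebf2 was highest. Mbtps1, the protease that makes the first cut in SREBP, had 36.3 and 33.8 TPM in LCDM, 28.2 and 27.4 in A2iL, 32.6 and 31.1 in 2iL-F, 45.4 and 50.5 in 2iL, against 28.2 and 30.6 in SL and was highest in 2iL.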
